A study of Mus musculus with 4 samples.

Results

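CD8 T cells with few cytotoxic transcripts were examined in blood labelled as mouse during acute pancreatitis. The members were chosen by measured values: at most 10% mitochondrial UMIs (unique molecular identifiers), at least 2 UMIs of Cd3e, Cd3d and Cd3g together, at least 1 of Cd8b, 0 of Cd4, Foxp3 and Csf1r, at most 1 of Cd79b, at most 3 of Ccl5 and Nkg7 together, at most 1 of the dividing-cell genes Mki67, Top2a, Birc5 and Cdk1 together, and Lyz2 under 5000 CPM (counts scaled to the same library total). This gave 3564 cells of 53380 in all. There were 845 in control blood, 651 at 12 h, 570 at 24 h and 1498 at 96 h. Levels of these genes are given as a description and support nothing further.

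Blood mononuclear cells of wild-type C57BL/6J mice aged 6 to 8 weeks were separated on a Ficoll gradient and profiled cell by cell with droplet 5′ RNA libraries. Acute pancreatitis had been brought on with 7 intraperitoneal injections of cerulein, a cholecystokinin analogue that overstimulates pancreatic acinar cells. Control blood was drawn at 0 h, the libraries of 12 h and 24 h belong to the initial phase, and that of 96 h during recovery, although the study's design text puts the last collection at 168 h. The gene names in the files go against the mouse label: 28 carry the rat MHC prefix RT1-, 1691 the rat contig prefix AABR07 and 0 the mouse prefix H2-. The names are therefore those of a rat annotation, and the species of the cells was not tested. With 1 library for each time, from an unstated number of mice, no difference has a replicate check and none was tested. Intervals are 95% intervals for counting error only.

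CD8 T cells recognise peptides on MHC class I molecules through the T cell receptor, with the CD8 coreceptor binding the MHC molecule. Naive CD8 T cells circulate between blood and lymph nodes, using the chemokine receptor Ccr7 to enter nodes and the sphingosine 1-phosphate receptor S1pr1 to leave them. After activation, effector and memory cells take up the interleukin-2 and interleukin-15 receptor chain Il2rb, the chemokine receptor Cxcr3 and granule proteases. Glucocorticoids, which rise in acute illness, act on gene expression and on the traffic of blood T cells.

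The 4 libraries held 60515205 to 79516878 UMIs over all cells. The median member had 5818 UMIs in control blood, 6097 at 12 h, 7265.5 at 24 h and 6594 at 96 h. Its median mitochondrial share was 7.04%, 5.82%, 6.16% and 5.79% in that order. No member had the same counts as a member of another library (0 cells). Of the T cells, 1420 in control blood, 697 at 12 h, 1186 at 24 h and 2531 at 96 h had no UMI of Cd4, Cd8a or Cd8b, and their lineage is not given by these genes. The members are the CD8 T cells whose Cd8b was sampled. Control T cells without a Cd8b UMI that pass the rest of the rule had 182 CPM of Cd8a, against 1270 CPM in members with 1 Cd8b UMI. How many CD8 T cells the rule missed was not tested.

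The members carried the markers of CD8 T cells. Cd8a, the other chain of the coreceptor, was not used by the rule and had 1217 to 1356 CPM in the 4 libraries, and 27 of 845 members in control blood, 13 of 651 at 12 h, 13 of 570 at 24 h and 45 of 1498 at 96 h had no Cd8a UMI. With each cell thinned to 2000 UMIs, Cd8a was detected in 88.0% of members and 4.99% of B cells of the control library, B cells standing for cells that should lack it. The transcription factor Lef1, kept on in naive T cells, had 602 CPM in control blood, 479 at 12 h, 509 at 24 h and 537 at 96 h. In control blood some other naive genes were much lower, at 37.9 CPM for Tcf7, 32.3 for Il7r, 11.5 for Ccr7 and 9.48 for Klf2. A Ccr7 UMI was found in 6.39% of members there. S1pr1, also a gene of naive and recirculating T cells, had 361 CPM. The low levels were not particular to the members. Control T cells without a Cd8b UMI that pass the rest of the rule had 43.2 CPM of Tcf7 and 42.5 of Il7r. They had 13.6 CPM of Ccr7 and 12.1 of Klf2. Of 16 measured genes of naive and recirculating T cells, 0 passed 1.5-fold upward and 1 downward at 12 h, 1 upward and 2 downward at 24 h, and 1 upward and 0 downward at 96 h. Eomes, a factor of memory and killer cells, had at most 0.488 CPM in any library. It was also low in CD8 T cells with 4 or more UMIs of Ccl5 and Nkg7. They had 10.2 CPM in control blood, 1.26 at 12 h, 3.21 at 24 h and 2.01 at 96 h. Its low level in members therefore says little on memory or killer identity. Defining transcripts of pancreatic acinar cells summed to 0.403 to 1.16 CPM.

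The members' share of all kept cells was lower at 12 h and 24 h than in the control library and higher at 96 h. They were 7.00% of kept cells in control blood (exact binomial interval 6.55 to 7.47), 5.90% at 12 h (5.47 to 6.36), 5.01% at 24 h (4.62 to 5.43) and 11.0% at 96 h (10.5 to 11.6). The ratio to control was 0.843 at 12 h (0.764 to 0.931), 0.716 at 24 h (0.646 to 0.794) and 1.58 at 96 h (1.46 to 1.71). With at most 5% mitochondrial UMIs the first ratios were 1.76 at 12 h and 1.23 at 24 h, on 124 members at 12 h, 55 at 24 h and 23 in the control library, and the ratio at 96 h was 3.98. That cut left 584 of 12073 kept cells in the control library, 1794 of 11027 at 12 h and 1140 of 11371 at 24 h. No interval is given for these ratios. Among members with no Lyz2, Cd79a, Cd79b or Ms4a1 UMI, the ratio was 0.560 at 12 h, 0.162 at 24 h and 2.27 at 96 h, on 67, 20 and 334 members against 131 in the control library. The kept cells were not filtered this way. Without thinning, a Lyz2 UMI was found in 82.8% of members in control blood, 88.0% at 12 h, 96.5% at 24 h and 75.4% at 96 h. In B cells it was found in 77.3%, 86.7%, 97.0% and 74.2%. These ratios thus also vary with Lyz2 detection in each library and are no separate check on the share. A share of captured cells does not give cells per volume of blood.

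Among T cells alone the members' share varied less. They were 29.4% of T cells in control blood, 33.8% at 12 h, 26.2% at 24 h and 28.2% at 96 h. Relative to control the share was 1.15 at 12 h (1.06 to 1.25), 0.890 at 24 h (0.813 to 0.974) and 0.959 at 96 h (0.893 to 1.03). Cells that pass the rest of the rule but hold 4 or more UMIs of Ccl5 and Nkg7 numbered 27 in control blood, 105 at 12 h, 33 at 24 h and 116 at 96 h. Members therefore made up 96.9% of both classes together in control blood, 86.1% at 12 h, 94.5% at 24 h and 92.8% at 96 h.

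**Figure D1:**
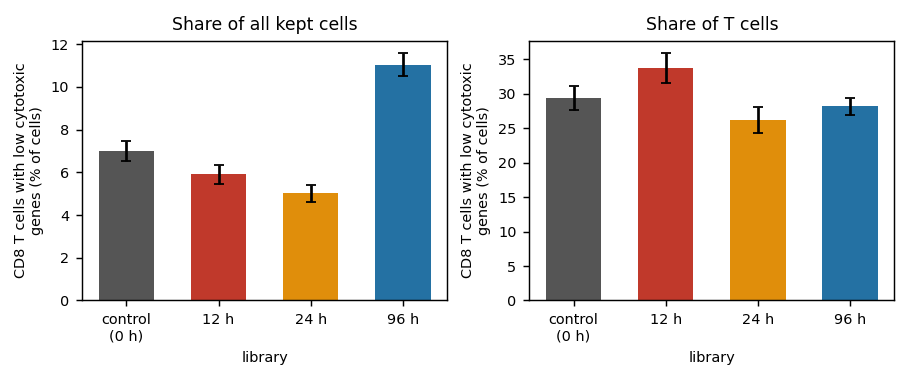
Members as a percentage of all kept cells (left) and of T cells (right) in the control library and at 12, 24 and 96 h, with 95% exact binomial intervals as bars, 1 library per time. The share of kept cells is highest at 96 h (11.0%), while the share of T cells lies between 26.2% and 33.8%.

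Few genes stood 2-fold or more from control in the members. Genes were counted as measured with at least 20 CPM in either library and 50 UMIs over both. At 12 h, 39 of 3925 measured genes lay 2-fold or more above control (0.994%) and 11 lay 2-fold or more below (0.28%), a split of 29 higher and 14 lower under median-of-ratios scaling. At 24 h, 23 of 3814 lay above by that size (0.603%) and 22 below (0.577%). At 96 h, 10 of 3792 lay above (0.264%) and 8 below (0.211%). The order of the times by this count differed in smaller sets of members. With at most 5% mitochondrial UMIs, 118, 62 and 340 genes passed 2-fold in either direction at 12, 24 and 96 h. With no Lyz2, Cd79a, Cd79b or Ms4a1 UMI the counts were 33, 95 and 68. The former set held 109043 UMIs in the control library, against 4958808 in all members, and the latter 130070 at 24 h, against 4217234. Lower totals add counting error and change the genes measured, so these counts cannot settle the order. Members of gene lists were counted at 1.5-fold, which 4.08% of measured genes passed upward and 1.58% downward at 12 h, 2.65% and 4.04% at 24 h, and 1.32% and 1.29% at 96 h. The median log2 ratio of all measured genes was 0.071 at 12 h, -0.038 at 24 h and 0.035 at 96 h.

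**Figure D2:**
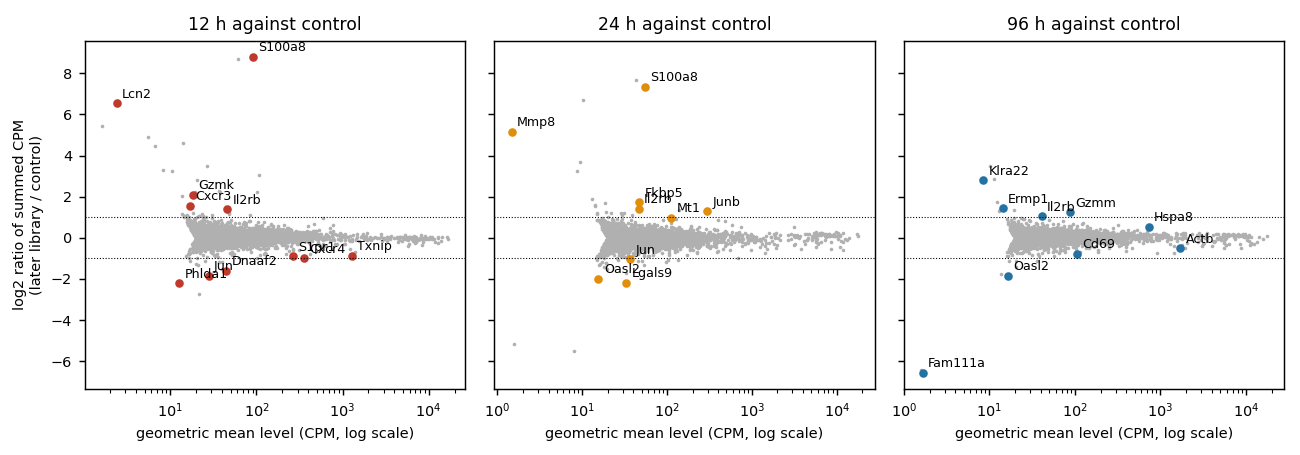
Log2 ratio of summed CPM (later library over control) against the geometric mean level in CPM on a log scale, for each measured gene in the members at 12, 24 and 96 h; dotted lines mark 2-fold, genes at 0 UMIs are set to 3 counts for the ratio, and levels under 0.1 CPM enter the horizontal axis at 0.1. Most genes lie within the lines, with S100a8 far above them at 12 h and 24 h and Fam111a far below at 96 h.

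Genes of the T cell receptor machinery stayed near control. Of 28 measured at 12 h, 1 was at least 1.5-fold higher and 0 lower, and of 27 measured at 24 h and at 96 h, 0 passed in either direction. These counts include 4 genes that the rule used to choose the members (Cd3e, Cd3d, Cd3g and Cd8b). Past the line was Trat1, an adaptor that steadies the receptor at the surface, with 47.9 CPM at 12 h against 27.0 CPM in the control library (ratio 1.77, 1.41 to 2.22). Subunits of the respiratory chain also stayed within 1.5-fold, with 0 of 22 past it at any time.

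The exit receptor S1pr1 and the homing receptor Cxcr4 were lower at 12 h. They were the 2 of 19 measured chemokine, egress and adhesion receptors that passed 1.5-fold downward, while Cxcr3, Itgb1 and Itgb7 passed it upward (3 of 19, median log2 ratio 0.079). S1pr1 had 361 CPM in control blood, 196 at 12 h, 263 at 24 h and 354 at 96 h. Its ratio was 0.542 at 12 h (0.498 to 0.590), 0.729 at 24 h and 0.980 at 96 h. Cxcr4, a bone marrow homing receptor, had 496 CPM in control blood, 250 at 12 h, 308 at 24 h and 525 at 96 h, with a ratio of 0.504 at 12 h (0.468 to 0.543). With cells thinned to 2000 UMIs, S1pr1 was detected in 48.4% of members in control blood, 29.3% at 12 h, 39.2% at 24 h and 50.2% at 96 h. In B cells, which also use S1pr1, it was detected in 28.6%, 23.5%, 20.7% and 28.9% in that order. P2ry10, a lysophospholipid receptor, had 82.5 CPM at 12 h against 149 CPM in the control library (ratio 0.553, 0.485 to 0.630).

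Txnip, Zfp36l2 and Pik3ip1 were also lower at 12 h. Txnip, an inhibitor of thioredoxin and of glucose uptake, had 1717 CPM in control blood, 943 at 12 h, 1450 at 24 h and 1693 at 96 h (ratio 0.549 at 12 h, 0.529 to 0.571). Zfp36l2, which promotes mRNA decay and quiescence, had 1105 CPM at 12 h against 1804 CPM in the control library (ratio 0.613, 0.591 to 0.635). Pik3ip1, an inhibitor of PI3 kinase, had 168 CPM at 12 h against 288 CPM in the control library. Il4r, the interleukin-4 receptor, had 97.4 CPM at 12 h against 162 CPM in the control library (ratio 0.602). Of 12 measured quiescence factors, 0 passed 1.5-fold upward and 2 downward at 12 h (median log2 ratio -0.20). The lowest ratios among the named genes at 12 h included that of Phlda1, with 5.86 CPM at 12 h against 26.8 CPM in the control library (ratio 0.218, 0.135 to 0.339), and that of Dnaaf2, with 25.4 CPM against 76.4 CPM (ratio 0.332, 0.265 to 0.414).

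Immediate early genes, which are switched on within minutes of stimulation, were low at 12 h and mixed at 24 h. At 12 h, 0 of 11 measured were at least 1.5-fold higher and 5 lower, namely Jun, Jund, Ier5, Dusp1 and Zfp36, with a median log2 ratio of -0.54. Jun, a subunit of the transcription factor AP-1, had 52.8 CPM in control blood, 14.6 at 12 h, 25.6 at 24 h and 59.8 at 96 h (ratio 0.277 at 12 h, 0.206 to 0.368). At 24 h, 4 of 12 were higher, Fos, Junb, Ier2 and Zfp36, and 3 lower, Jun, Jund and Ier5. Junb had 191 CPM in control blood, 138 at 12 h, 467 at 24 h and 248 at 96 h (ratio 2.44 at 24 h, 2.26 to 2.64), so AP-1 subunits stood on opposite sides of control at 24 h. At 96 h, 0 of 12 passed in either direction. The low level at 12 h was not particular to the members. Summed over 26 genes, members had 1392 CPM at 12 h against 1977 CPM in the control library. CD8 T cells with high Ccl5 and Nkg7 had 1518 against 2357 CPM and CD4 T cells without Foxp3 2582 against 3495 CPM. B cells had 4376 against 6175 CPM, monocytes 5932 against 10820 CPM and natural killer (NK) cells 2544 against 3328 CPM.

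Glucocorticoid-responsive genes did not move as a block. Fkbp5, a co-chaperone of the glucocorticoid receptor, had 25.6 CPM in control blood, 43.7 at 12 h, 85.1 at 24 h and 35.6 at 96 h. Its ratio was 1.71 at 12 h (1.35 to 2.16), 3.32 at 24 h (2.71 to 4.10) and 1.39 at 96 h (1.13 to 1.71). The metallothionein Mt1 had 157 CPM at 24 h against 79.9 CPM in the control library (ratio 1.96, 1.73 to 2.23). In the list as a whole, 1 of 13 was at least 1.5-fold higher and 5 lower at 12 h (Klf9, Txnip, Cxcr4, Irs2 and Pik3ip1), and 2 were higher and 3 lower at 24 h. The median log2 ratio was -0.45 at 12 h and -0.25 at 24 h.

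**Figure D3:**
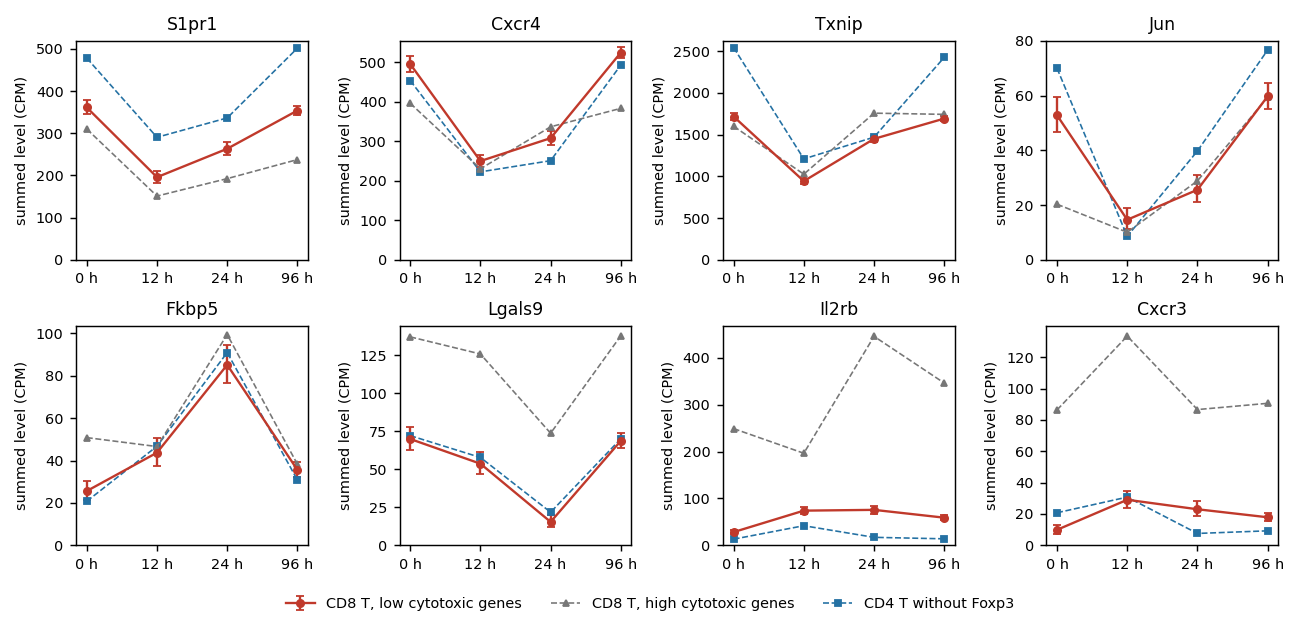
Summed level in CPM of 8 genes in the control library (0 h) and at 12, 24 and 96 h, equally spaced, for the members with 95% Poisson intervals, for CD8 T cells with 4 or more UMIs of Ccl5 and Nkg7, and for CD4 T cells without Foxp3. S1pr1, Cxcr4, Txnip and Jun dip at 12 h in the members, Fkbp5 peaks at 24 h (85.1 CPM) and Lgals9 has its low there (15.4 CPM).

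The other named genes at 24 h included transcription factors and a galectin. Lgals9, a galectin that binds the checkpoint receptor Tim-3, had 70.0 CPM in control blood, 53.7 at 12 h, 15.4 at 24 h and 68.8 at 96 h (ratio 0.220 at 24 h, 0.166 to 0.288). Gata3, a T cell lineage factor, had 18.3 CPM at 24 h against 38.1 CPM in the control library (ratio 0.479, 0.363 to 0.628), and its log2 ratio was 0.26 with at most 5% mitochondrial UMIs. Batf, an AP-1 family factor of T cell activation, had 14.5 CPM in control blood, 29.3 at 12 h, 33.7 at 24 h and 24.1 at 96 h (ratio 2.32 at 24 h, 1.73 to 3.12). RT1-T24-4 had 217 CPM at 24 h against 86.1 CPM in the control library (ratio 2.52) and its near copy RT1-T24-3 had 18.0 CPM against 36.1 CPM (ratio 0.499). Both carry rat names of MHC class I genes in the files, and the split of reads between such copies is uncertain. The interferon-induced gene Oasl2 was below control at each time, with 30.9 CPM in control blood, 12.7 at 12 h, 7.83 at 24 h and 8.61 at 96 h, and it was the 1 of 10 measured type I interferon genes that passed 1.5-fold downward at each time. At 24 h 1 of 10 passed upward, Ifi27, with 730 CPM against 466 CPM in the control library (ratio 1.57).

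The same genes are set beside those of neighbouring classes, and differences between classes were not tested. For Fkbp5 at 24 h the ratio was 3.32 in members, 1.96 in CD8 T cells with high Ccl5 and Nkg7 (0.935 to 4.47), 4.38 in CD4 T cells without Foxp3 (2.66 to 7.58) and 2.92 in B cells (2.27 to 3.80). For S1pr1 at 12 h it was 0.542 in members, 0.488 in CD8 T cells with high Ccl5 and Nkg7, 0.608 in CD4 T cells without Foxp3 and 0.784 in B cells. For Lgals9 at 24 h it was 0.220 in members, 0.538, 0.302 and 0.794 in the same order of classes. All classes of a time come from 1 library and share its control.

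Some genes of memory CD8 T cells were higher at 12 h. Of 14 measured, 6 were at least 1.5-fold higher and 0 lower, namely Il2rb, Cxcr3, Itgb1, S100a4, Anxa1 and Ahnak, with a median log2 ratio of 0.45. At 24 h, 3 of 14 were higher and 0 lower, and at 96 h 1 of 12 was higher and 2 lower. Summed over 27 genes of the list, CD4 T cells without Foxp3 had 7256 CPM at 12 h against 4627 CPM in the control library. The rise was thus not particular to CD8 T cells. CD8 T cells with high Ccl5 and Nkg7 had 10268 against 9902 CPM and B cells 3305 against 3020 CPM. Monocytes had 21279 against 21495 CPM and NK cells 8864 against 8915 CPM. In the members the sum was 3708 against 2948 CPM. Anxa1, an actin- and lipid-binding annexin also abundant in neutrophils, had 54.2 CPM at 12 h against 7.66 CPM in the control library, a log2 ratio of 2.82 that was 1.87 without the members holding 10 or more S100a8 and S100a9 UMIs. The log2 ratio of Il2rb at 12 h was 1.39 with those cells and 1.41 without them. Il2rb had 28.2 CPM in control blood, 74.0 at 12 h, 75.6 at 24 h and 59.0 at 96 h. Its ratio was 2.62 at 12 h (2.14 to 3.22), 2.68 at 24 h (2.19 to 3.29) and 2.09 at 96 h (1.74 to 2.53). At 24 h the log2 ratio of Il2rb was -0.42 in the members without a Lyz2, Cd79a, Cd79b or Ms4a1 UMI, of which there were 20 at 24 h and 131 in the control library.

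Cxcr3, which guides T cells to inflamed tissue, had 9.88 CPM in control blood, 29.1 at 12 h, 23.0 at 24 h and 17.9 at 96 h (ratio 2.94 at 12 h, 2.09 to 4.19). With cells thinned to 2000 UMIs, Il2rb was detected in 5.59% of members in control blood, 11.7% at 12 h, 12.1% at 24 h and 8.95% at 96 h, against 1.71%, 2.56%, 1.35% and 1.94% of B cells in that order. Without thinning these shares in members were 12.8%, 26.7%, 31.6% and 23.9%. Cd44, often used to mark memory cells, had 109 CPM at 12 h against 140 CPM in the control library (ratio 0.782). Eomes was near 0 in members at all times, and at 12 h it had only 1.26 CPM in CD8 T cells with high Ccl5 and Nkg7. Cish, a feedback inhibitor of interleukin-2 receptor signalling, had 27.6 CPM at 12 h against 11.9 CPM in the control library (ratio 2.32, 1.68 to 3.23).

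Granule genes outside the rule differed from each other. Gzmm, granzyme M, had 57.5 CPM in control blood, 122 at 12 h, 76.4 at 24 h and 136 at 96 h, with a ratio of 2.12 at 12 h (1.83 to 2.47) and 2.37 at 96 h (2.08 to 2.70). Gzmk, granzyme K, had 8.87, 38.1, 5.93 and 8.32 CPM in that order, and 10 cells held 66.0% of its UMIs at 12 h. The killer lectin receptor Klra22 had 3.23, 12.2, 14.2 and 22.5 CPM, and 10 cells held 100% of its UMIs in control blood, 82.0% at 12 h, 100% at 24 h and 35.2% at 96 h. With at most 5% mitochondrial UMIs its log2 ratio was -0.69 at 12 h, against 1.92 in all members, and 0.079 at 96 h, against 2.80. That cut left 23 of the 845 control members, of which at most 10 held a Klra22 UMI before it. The values under the cut may thus rest on a control count of 0 set to 3, and they cannot show whether the difference was absent there. Of 11 measured cytotoxic effector genes, 2 passed 1.5-fold upward and 0 downward at 12 h, and of 10 measured later, 1 passed upward and 2 downward at 24 h, and 1 upward and 1 downward at 96 h.

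Gzmm and Il2rb were higher in members with 2 to 3 Ccl5 and Nkg7 UMIs than in members with none, although the rule caps Ccl5 and Nkg7. Of 3111 other genes compared this way, 237 were higher and 275 lower in every library. Among those 237, Gzmm had the highest mean log2 ratio over the libraries, 1.47, and Il2rb had 0.81, so both lie near the top of this contrast. Gzmk was not higher in every library. In control blood the ratio was 1.26 for Gzmm (0.824 to 1.87) and 1.43 for Il2rb (0.753 to 2.53). The rise was not graded in every library: members with 1 UMI had 41.2 CPM of Gzmm in control blood and 63.6 CPM of Il2rb at 24 h. Members with 2 to 3 UMIs were also deeper, with a median of 7510 UMIs against 6422 at 96 h. Between members with 2 to 3 UMIs of the pair and members with none, Gzmm had 77.0 CPM against 61.0 CPM in control blood, 272 CPM against 82.5 CPM at 12 h, 196 CPM against 52.7 CPM at 24 h and 366 CPM against 96.6 CPM at 96 h. Il2rb had 37.2 CPM against 25.9 CPM in control blood, 127 CPM against 60.4 CPM at 12 h, 123 CPM against 72.1 CPM at 24 h and 98.1 CPM against 53.5 CPM at 96 h. Gzmk had 5.31 CPM against 8.25 CPM in control blood, 127 CPM against 19.6 CPM at 12 h, 20.5 CPM against 5.43 CPM at 24 h and 6.80 CPM against 8.74 CPM at 96 h. Across the threshold at 12 h, the 20 members with exactly 3 UMIs had 386 CPM of Gzmm and the 11 cells with exactly 4 had 1100 CPM, and Lef1 had 459 CPM in the members with 3 and 292 CPM in the cells with 4. These values describe the cut and carry no test.

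**Figure D4:**
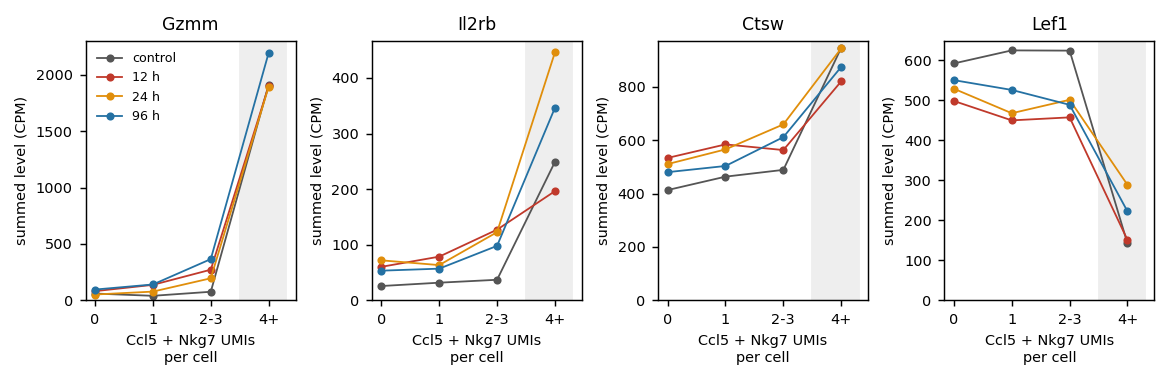
Summed level in CPM of Gzmm, Il2rb, Ctsw and Lef1 in CD8 T cells with 0, 1, 2 to 3, and 4 or more UMIs of Ccl5 and Nkg7 together, with 1 line per library; the shaded bin lies outside the members. In that bin Gzmm is 1892 to 2192 CPM and Lef1 142 to 289 CPM, while in members with no UMI of the pair Gzmm is 52.7 to 96.6 CPM.

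Cells with an Il2rb UMI numbered 108 in control blood, 174 at 12 h, 180 at 24 h and 358 at 96 h. In the 96 h library they had 362 CPM of Gzmm against 49.8 CPM in the other members, 73.2 CPM of Klra22 against 3.21 CPM, and 467 CPM of Lef1 against 564 CPM. They were also deeper, with a median of 7881.5 UMIs against 6281.5, and a deeper cell has a higher chance of an Il2rb UMI.

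Among heat shock proteins and co-chaperones at 96 h, 3 of 14 measured were at least 1.5-fold higher (Hsph1, Dnaja1 and Dnajb1) and 0 lower, with a median log2 ratio of 0.31. Dnaja1, a co-chaperone of Hsp70, had 158 CPM at 96 h against 97.6 CPM in the control library (ratio 1.62, 1.47 to 1.80). The summed level of 15 such genes was higher at 96 h in other classes too. It was 3681 against 2982 CPM in members, 4649 against 3653 in CD8 T cells with high Ccl5 and Nkg7. CD4 T cells without Foxp3 had 3538 against 2892 CPM and B cells 3140 against 2483 CPM. Monocytes had 3528 against 3180 CPM and NK cells 5543 against 4290 CPM. Cd69, which keeps T cells in tissue by opposing S1pr1, had 81.6 CPM in the members at 96 h against 139 CPM in the control library (ratio 0.587, 0.530 to 0.650). Id2, a regulator of effector cells, had 24.3 CPM at 96 h against 52.6 CPM in the control library (ratio 0.461, 0.386 to 0.551), and its log2 ratio was 0.41 with at most 5% mitochondrial UMIs. Actb, cytoskeletal actin, had 1436 CPM at 96 h against 2042 CPM in the control library (ratio 0.703).

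Fam111a, a protease of DNA replication, had 0 UMIs in the members at 96 h against 136 UMIs in the control library (27.4 CPM). Its ratio was 0.0106 with the count of 0 set to 3, and the upper bound of its interval was 0.0132. CD4 T cells without Foxp3 also had 0 CPM at 96 h against 43.7 CPM in the control library, and B cells had 0.253 CPM against 13.6 CPM.

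Neutrophil transcripts were found among the members at 12 h and 24 h. S100a8, a calprotectin subunit, had 4.23 CPM in control blood, 1910 at 12 h, 694 at 24 h and 30.9 at 96 h. At 12 h S100a8 was detected in 50.7% of thinned members and in 71.9% of thinned B cells, which should not express it, with median depths of 6097 UMIs in members and 2932 in B cells. At 12 h, 16 members (2.46%) held 84.0% of the S100a8 and S100a9 UMIs, the highest cell holding 2359, and without these cells the pair summed to 523 CPM. Lcn2, at 56.4 CPM at 12 h and 0 in the control library, was 93.2-fold higher with the count of 0 set to 3. The lower bound of its interval was 75.2, and 10 cells held 96.5% of its UMIs. Its log2 ratio was 6.54 with the 16 cells and 2.54 without them. The whole neutrophil list of 9 genes summed to 10.7 CPM in control blood, 3312 at 12 h, 1346 at 24 h and 70.0 at 96 h, with 4 of the 9 at 0 in the control library.

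Other foreign transcripts also differed between libraries. Lyz2 of monocytes, capped by the rule, had 294 CPM in control blood, 354 at 12 h, 529 at 24 h and 212 at 96 h. Class II genes, of which 5 were measured, had 5 at least 1.5-fold lower at 24 h, and Cd74 had 93.4 CPM at 24 h against 194 CPM in the control library (ratio 0.481). With at most 5% mitochondrial UMIs the log2 ratio of Cd74 at 24 h was 0.90. Summed over 13 monocyte genes, the level was 525 CPM in control blood, 646 at 12 h, 864 at 24 h and 437 at 96 h. Whether these transcripts had a part in the results above was not tested.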

How the data were processed

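Blood cells of 4 libraries were measured by 10x 5′ sequencing, 1 library per group. The deposited values are raw UMI counts, not normalized. The submitters' processing notes name the tools Cell Ranger and Seurat and the build mm10, without versions or roles. The files list 16152 gene names, of which 28 begin with RT1- (rat MHC) and 1691 with AABR07, and none begin with H2-, so no coordinates or sequences are given. The control barcode list has 4340 entries and is shorter than its matrix, and the 24 h list is a copy of the 12 h list and is also shorter than its matrix. Cells were therefore taken from matrix columns, and barcodes shared between libraries could not be counted.

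Cells with at most 10% mitochondrial UMIs were kept. UMIs of members were summed per library and scaled to CPM. Ratios have exact conditional binomial intervals, shares Clopper-Pearson intervals, levels Poisson intervals, and ratios of shares log intervals. A count of 0 was set to 3 in ratios. The interval and fold steps were tested on simulated independent Poisson counts, the counting error that the intervals assume. UMIs concentrated in few cells, as for Gzmk at 12 h, were not simulated, so the intervals are untested for such genes. Doublets were not removed in the main results; Scrublet in scanpy 1.11.5 marked 1 of 845 members in control blood, 2 of 651 at 12 h, 3 of 570 at 24 h and 17 of 1498 at 96 h.

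Named genes were, per time, the 10 highest and 10 lowest by the interval bound nearest to 1 where the level reached 25% of that in the highest class, each list's extremes, and a set of T cell genes, of which a member is not reported here. Other list members, Itgb1 and Pik3ip1 among them, were named after their values were seen. Members and lists were chosen with earlier results of these data known. Software was python 3.11.15, numpy 2.4.6, scipy 1.17.1 and pandas 2.3.3.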

Additional observations from a re-analysis of the deposited data

Results flagged for a closer look

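Cxcr3 at 24 h stood on opposite sides of control in 2 T cell classes. Its ratio to control was 2.33 in CD8 T cells with low cytotoxic genes (1.63 to 3.35) and 0.365 in CD4 T cells without Foxp3 (0.138 to 0.872), where it rests on 8 UMIs at 24 h against 19 in the control library. With 1 library per time the difference between the classes was not tested.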

How the results depend on the processing

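No paired analysis was possible because each group has 1 library. The limit of at most 5% mitochondrial UMIs left 23 members in control blood, 124 at 12 h, 55 at 24 h and 256 at 96 h. They were among 584, 1794, 1140 and 1634 kept cells in that order. Ratios of the share were 1.76 at 12 h and 1.23 at 24 h, both above control where the main ratios were below, and 3.98 at 96 h. No interval is given for these ratios. Genes past 2-fold numbered 118 at 12 h and 340 at 96 h. Log2 ratios that changed sign there were, at 12 h, Lcn2 -2.39, Mmp8 -0.58, Pglyrp1 -0.58, Ifi47 -0.047, Lgals3 -0.69 and Klra22 -0.69; at 24 h, Gata3 0.26, RT1-Bb 0.47, Cd74 0.90 and the class II list median 1.20; and at 96 h, S100a9 -1.63, S100a8 -0.89, Id2 0.41 and Irf8 -0.044. Lcn2 and Mmp8 had 0 UMIs in all control members. Their sign change came from a count of 0 set to 3 in 109043 control UMIs, against 760445 UMIs at 12 h. Pglyrp1, with 7 UMIs in all control members, and Klra22 may rest on the same setting. With no Lyz2, Cd79a, Cd79b or Ms4a1 UMI (131, 67, 20 and 334 members in time order) the share ratio was 0.560 at 12 h, 0.162 at 24 h and 2.27 at 96 h, with the kept cells left unfiltered. There were 33, 95 and 68 genes past 2-fold, and at 24 h Tra2a was 0.046, Nrde2 0.26 and Il2rb -0.42. Thinning to 2000 UMIs gave 71 genes at 24 h and 36 at 96 h, with Anxa1 -0.17 and Irf8 -0.081 at 24 h. A minimum of 100 UMIs and 100 CPM gave 5, 8 and 1 genes, and no CPM minimum 355, 383 and 290, since each changes the genes measured. With Ccl5 and Nkg7 at 0 the share ratio at 12 h was 0.748; with at least 2 Cd8b UMIs it was 0.872 at 24 h and 1.73 at 96 h. Apart from the minimum levels, the cause was not tested. Of 72 named ratios of at least 2-fold, 54 kept their sign under all alternatives. Lcn2 and Mmp8 at 12 h are counted here as changing sign. Leaving out members with 10 or more S100a8 and S100a9 UMIs, chosen after seeing the data, kept all 6 shares and counts within their limits.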
